A study of Mus musculus with 12 samples.

Results

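The 7 genes described here store, import or export iron or sense its level. They are the ferritin chains Fth1 and Ftl1, the transferrin receptor Tfrc, the iron importer Slc11a2, the iron exporter Slc40a1, and the iron regulatory proteins Aco1 and Ireb2. They were taken by symbol from the 50600 gene entries of a bulk RNA-seq table of cultured neural stem cells (NSCs) from the dentate gyrus (DG) of adult wild type C57Bl6J mice. There were 12 libraries, 3 in each of 4 groups. TFBTBOA-Glut NSCs received 1 µM TFB-TBOA, which blocks all excitatory amino acid transporters (EAATs), and 15 min later 100 µM glutamate. TFBTBOA-Veh NSCs received the inhibitor and then vehicle, Veh-Glut NSCs received vehicle and then glutamate, and Veh-Veh NSCs received vehicle at both steps. RNA was collected 48 h later from NSCs of passage 4 grown with epidermal and basic fibroblast growth factor. The study's NSC lines each pooled the DG of 4 mice aged 6 weeks, with a male line and a female line. Which line, and so which sex, each library came from is not given in the sources used here. The 3 libraries of a group came from separate wells, and nothing states separate cultures, so every p-value rests on well-to-well variation that could be technical.

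Iron enters most cells bound to transferrin, which Tfrc takes up by endocytosis. Slc11a2 (DMT1) then moves ferrous iron out of the endosome, ferritin shells of Fth1 and Ftl1 chains hold what is not used, and Slc40a1 (ferroportin) releases iron from the cell. When iron is scarce, the regulatory proteins Aco1 (IRP1) and Ireb2 (IRP2) bind hairpins called iron responsive elements (IREs). Binding in a 5′ UTR blocks translation of the ferritin and Slc40a1 mRNAs, and binding in the 3′ UTR of Tfrc protects that mRNA from decay. Aco1 with an iron-sulfur cluster is the cytosolic aconitase instead, and Ireb2 is degraded when iron is plentiful. RNA-seq measures mRNA levels and does not read translation.

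A search for such hairpins found matches in 4 of the 7 genes. The matching sequences are shown here as read from the GENCODE M21 transcripts of GRCm38. The search asked for an unpaired C, 5 stem bases, the loop CAGTGN and 5 bases that pair with the stem, 17 bases in all. Capitals mark the 6 loop bases, and each line runs 5′ to 3′ on the strand of the gene. The Fth1 element lies at chr19:9982738-9982754 (plus strand, 5′ UTR) and the Ftl1 element at chr7:45459785-45459801 (minus strand, 5′ UTR). The 4 Tfrc elements lie on the plus strand in the 3′ UTR, at chr16:32631225-32631241, chr16:32631604-32631620, chr16:32631669-32631685 and chr16:32631716-32631732 in the order shown. The Slc40a1 element lies at chr1:45925471-45925487 (minus strand, 5′ UTR). Not every annotated coding transcript of these genes held its element. It was in 4 of 5 for Fth1, 1 of 2 for Ftl1, 1 of 3 for each Tfrc element and 1 of 4 for Slc40a1.
Fth1: cttcaaCAGTGCttgaa
Ftl1: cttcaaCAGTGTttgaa
Tfrc 1: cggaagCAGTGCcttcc
Tfrc 2: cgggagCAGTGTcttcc
Tfrc 3: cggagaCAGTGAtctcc
Tfrc 4: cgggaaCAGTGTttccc
Slc40a1: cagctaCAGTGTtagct

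Counted from 1 at the unpaired C, the Fth1 and Ftl1 elements differ by C12T, the last loop base. No match was found in the annotated transcripts of Slc11a2, Ireb2 or Aco1, which says only that this pattern is not in those letters. An element with an unpaired base within the stem would be missed. Whether these genes are controlled through such an element therefore cannot be judged from this search. Of 21901 coding genes, 294 (1.34%) held a match anywhere and 160 (0.731%) held it in a UTR. The bare loop CAGTG occurred in 93.9% of them.

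By gene length, the ferritin chains were the most abundant of the 7 mRNAs and Slc40a1 was near the limit of detection. Levels are given in normalized counts, reads per gene divided by a size factor of the library, and per kb of merged exons where genes are compared with each other. In Veh-Veh NSCs, Ftl1 was at 13923 ± 849 normalized counts per kb and Fth1 at 7819 ± 217 (SD, n = 3 for these values). Aco1 was at 847 ± 69.3, Tfrc at 297 ± 34.0, Slc11a2 at 134 ± 14.6, Ireb2 at 82.7 ± 3.88 and Slc40a1 at 0.625 ± 0.714 normalized counts per kb. The order was the same in the means of all 4 groups, and within a group no library of a gene overlapped the next gene in the order. Across groups, Slc11a2 and Ireb2 did overlap, with a lowest Slc11a2 library of 111 and a highest Ireb2 library of 115 normalized counts per kb. Among 13920 tested genes with a length, the mean of Ftl1 over the 12 libraries ranked 13 and that of Fth1 ranked 43. Aco1 lay above 92.0% of these genes, Tfrc above 77.9%, Slc11a2 above 61.1%, Ireb2 above 49.9% and Slc40a1 above 0.374%. Without the division by length, Fth1 had the larger count, since its merged exons span 3469 bases against 1340 bases in Ftl1.

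**Figure D1:**
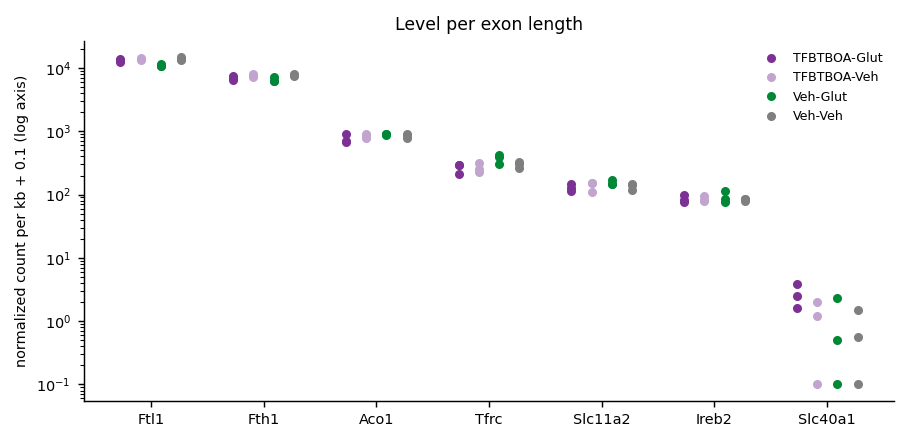
Normalized counts per kb of merged exons, with 0.1 added, on a log axis for the 7 genes, with 1 point per library and groups by colour. Ftl1 and Fth1 lie highest in every group, and the 3 Slc40a1 points at the bottom are libraries listed at 0.

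NSC markers were detected throughout. All 8 NSC markers were above 0 in all 12 libraries, with medians of 27588 normalized counts for Nes, 31001 for Slc1a3 and 191 for Sox2. Of the 6 microglia markers found, Cx3cr1 was at 0 in all 12 libraries, Aif1 and Tmem119 in 11 and Csf1r in 9, while P2ry12 was at 11.8 to 51.6 normalized counts in every library and Cd68 reached 32.2. The erythroid markers summed to at most 16.8 normalized counts in any library. Olig1, on the oligodendrocyte list, was at 41567 to 51786, while Mog was at 0 in 10 libraries and Mag in 8. On the astrocyte list, Gjb6 was at 0 in all 12 libraries and Aqp4 in 8, while Aldoc reached 6860. Recovered totals were 13064545 to 18372691 reads in the 10 libraries where whole reads could be recovered.

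Glutamate without the inhibitor was the comparison in which both ferritin mRNAs had their lowest levels. It asks which transcripts differ after NSCs are given the amino acid that EAATs carry. No gene of the 7 passed the test, limma on log2(normalized count + 1) with Benjamini-Hochberg adjustment over 14266 genes at a threshold of 0.05. Over all genes 23 passed, 0.161%. The groups did not overlap for Fth1 and Ftl1, 2 of the 7, while 14.4% of all genes tested had no overlap. The median log2 fold change of the 7 was 0.14, beside 7.77e-05 for all genes.

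Fth1, the heavy chain that oxidises ferrous iron, was at 24608, 21460 and 21337 normalized counts in the Veh-Glut libraries, against 27794, 27265 and 26309 in the Veh-Veh libraries. All 3 Veh-Glut libraries lay below all 3 Veh-Veh libraries. The log2 fold change was -0.27 (standard error 0.0584, 95% interval -0.40 to -0.15, adjusted p = 0.136 from limma). Fth1 spans chr19:9980598-9985098 on the plus strand.

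Ftl1, the light chain that helps iron form a mineral core, was at 15713, 14346 and 14286 normalized counts in Veh-Glut, against 18282, 19935 and 17753 in Veh-Veh. The 3 Veh-Glut libraries were the 3 lowest of the 12. The log2 fold change was -0.34 (standard error 0.0594, 95% interval -0.47 to -0.21, adjusted p = 0.0653 from limma). Ftl1 spans chr7:45457944-45459884 on the minus strand.

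The ferritin calls moved with the setting. DESeq2 on recovered reads called both chains lower (adjusted p = 0.0314 for Fth1 and 0.00168 for Ftl1), and edgeR called neither. In limma, Ftl1 passed with all 12 libraries in the fit (adjusted p = 0.0237), and at a minimum mean of 50 (adjusted p = 0.0425). Both chains passed without Veh-Glut replicate 1 (adjusted p = 0.00907 for Fth1 and 0.0165 for Ftl1 from limma), the Veh-Glut library with the highest ferritin. Summed NSC markers moved with these values. They were at 100170 to 103390 normalized counts in Veh-Glut and at 107661 to 110721 in Veh-Veh, and their part in the ferritin values was not tested. In bulk RNA, fewer cells of a type and less RNA per cell cannot be told apart.

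Reads of Ftl1 can be shared with near-identical copies. Ftl1-ps1, on chromosome 13, matched the Ftl1 transcript at 99.6% of 910 aligned bases, and Ftl2-ps, on chromosome 4, at 98.7% of 552. How reads were split among the copies is not given in the sources used here. Ftl1-ps1 was at 735 ± 11.3 normalized counts in Veh-Glut and 1022 ± 95.7 in Veh-Veh (SD, n = 3 each), a log2 fold change of -0.47 (adjusted p = 0.157 from limma). Its 3 Veh-Glut libraries also lay below the 3 Veh-Veh libraries. It was at 874 ± 79.1 in TFBTBOA-Glut and 1022 ± 36.3 in TFBTBOA-Veh. Ftl2-ps was at 550 ± 17.5 in Veh-Glut and 676 ± 31.1 in Veh-Veh. Ftl1 also shares up to 355 exon bases with Gm10252 on the opposite strand and 109 with the miRNA gene Gm22133 on its own strand, and the library kit does not mark strand.

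**Figure D2:**
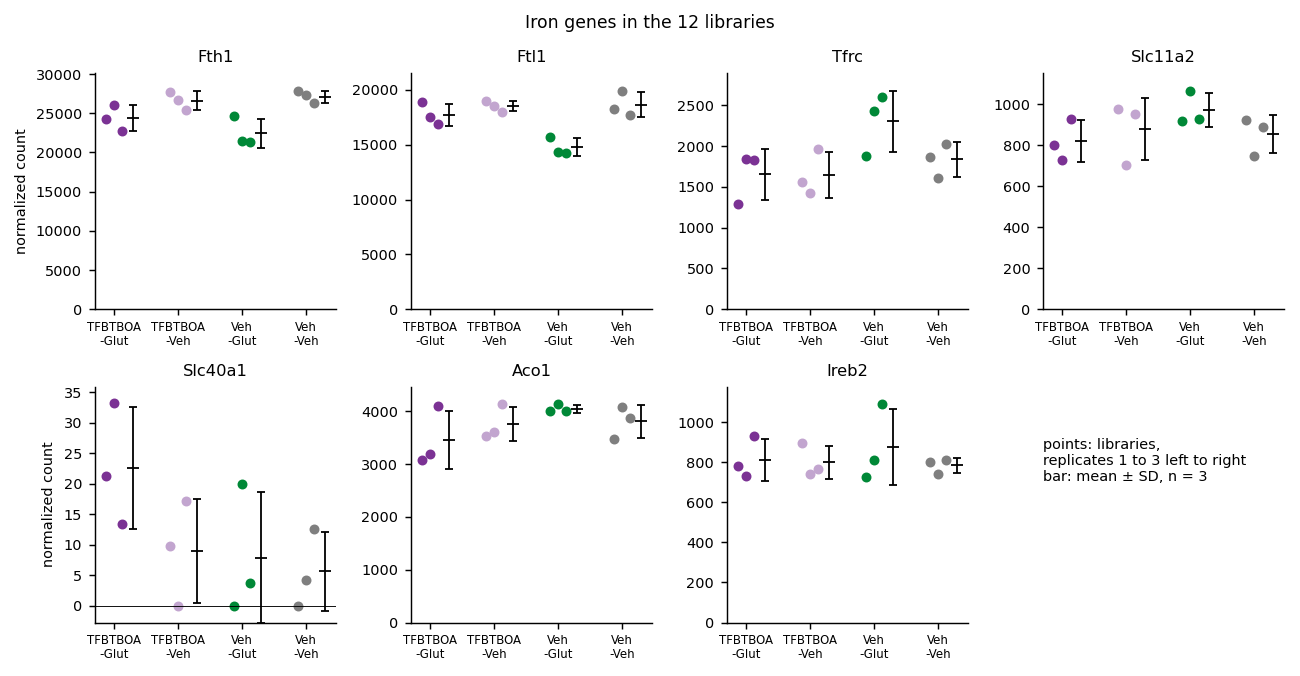
Normalized counts of each gene in the 12 libraries, replicates 1 to 3 from left to right in each group, with the mean and SD of 3 libraries beside them. The Ftl1 points of Veh-Glut lie between 14286 and 15713, below all 9 other libraries.

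Tfrc, the receptor for iron-loaded transferrin, was at 1885, 2435 and 2598 normalized counts in Veh-Glut, against 1871, 1612 and 2028 in Veh-Veh. Replicates 2 and 3 of Veh-Glut lay above every Veh-Veh library, and replicate 1 lay among them. The log2 fold change was 0.32 (standard error 0.125, 95% interval 0.046 to 0.60, adjusted p = 0.453 from limma). Tfrc spans chr16:32608920-32632794 on the plus strand.

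Slc11a2, the endosomal importer, was at 917, 1066 and 928 normalized counts in Veh-Glut, against 923, 749 and 890.5 in Veh-Veh. The groups overlapped, with a log2 fold change of 0.19 (95% interval -0.067 to 0.44, adjusted p = 0.639 from limma). Slc11a2 spans chr15:100387898-100425072 on the minus strand and shares up to 197 exon bases with Gm5475 on the opposite strand.

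Slc40a1, the exporter, was listed at 0, 20.0 and 3.71 normalized counts in Veh-Glut, against 0, 4.24 and 12.6 in Veh-Veh. A count of 0 in these libraries allows up to 3 reads, 2.95 normalized counts in Veh-Glut replicate 1 and 2.61 in Veh-Veh replicate 1, for counting error only. Its mean over the 12 libraries was 11.3, just above the minimum of 10, and the 95% interval of its log2 fold change ran from -2.75 to 3.07. A difference in Slc40a1 (chr1:45908068-45926523, minus strand) was not detectable at this depth.

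Aco1, which switches between aconitase and IRE binding, was at 4009, 4132 and 4000 normalized counts in Veh-Glut, against 3470, 4084 and 3872 in Veh-Veh. Ireb2, the regulator without aconitase activity, was at 725, 812 and 1090 in Veh-Glut, against 800.1, 742 and 810.5 in Veh-Veh. Both overlapped between groups. Their log2 fold changes were 0.090 for Aco1 (adjusted p = 0.732) and 0.14 for Ireb2 (adjusted p = 0.796 from limma). Aco1 spans chr4:40143081-40198338 and Ireb2 chr9:54863789-54912530, both on the plus strand.

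With EAATs blocked, no gene of the 7 passed the test for glutamate, and none had groups without overlap. It asks whether glutamate acts on the transcripts while EAATs are blocked. Fth1 was at 24319, 26086 and 22701 normalized counts in TFBTBOA-Glut, against 27767, 26689 and 25392 in TFBTBOA-Veh (log2 fold change -0.13, 95% interval -0.27 to 0.015). Ftl1 was at 18863, 17495 and 16891 in TFBTBOA-Glut, against 19030, 18554 and 18038 in TFBTBOA-Veh (log2 fold change -0.064, 95% interval -0.20 to 0.071). Tfrc was at 1289, 1846 and 1826 in TFBTBOA-Glut, against 1560, 1425 and 1967 in TFBTBOA-Veh. The ferritin libraries with and without glutamate thus overlapped, as did those of Tfrc. Its log2 fold change was -0.0034 with a 95% interval of -0.34 to 0.33, so changes of that size remain possible.

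The importer and the regulatory proteins overlapped between these groups. Slc11a2 was at 802, 728.5 and 929 normalized counts in TFBTBOA-Glut, against 978, 705 and 951 in TFBTBOA-Veh. Aco1 was at 3078, 3198 and 4098 in TFBTBOA-Glut, against 3541, 3601 and 4139 in TFBTBOA-Veh. Ireb2 was at 779, 728.5 and 930 in TFBTBOA-Glut, against 893, 741 and 763 in TFBTBOA-Veh. In each case replicates of a group differed more than the group means did. Slc40a1 was at 21.2, 33.3 and 13.4 in TFBTBOA-Glut, against 9.84, 0 and 17.1 in TFBTBOA-Veh (log2 fold change 1.94, 95% interval -0.14 to 4.01), too wide an interval to place it. limma gave each of the 7 genes an adjusted p of 1.00. No gene of the 14266 passed (0%), with 537 at an unadjusted p under 0.05, and 8.96% had no overlap between groups.

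Whether the glutamate effect itself differed with the inhibitor was tested as an interaction over all 12 libraries. The difference was 0.27 for Ftl1 (95% interval 0.091 to 0.45, adjusted p = 0.531), 0.15 for Fth1 (adjusted p = 0.739) and -0.32 for Tfrc (adjusted p = 0.756 from limma). None of the 7 passed, as against 0.014% of all genes, so the glutamate effects on these mRNAs were not shown to differ with and without the inhibitor. For Ftl1 the unadjusted interval lay above 0.

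The inhibitor in the presence of glutamate gave the reverse pattern of values for Ftl1 and Tfrc. It uses the same Veh-Glut libraries as the comparison of glutamate alone, so the opposite signs are not independent of each other. Again no gene of the 7 passed in limma, as against 2.18% of all genes. Ftl1 and Tfrc had no overlap between groups, 2 of the 7, and 23.2% of all genes had none.

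The Ftl1 libraries of TFBTBOA-Glut lay at 16891 to 18863 normalized counts, against 14286 to 15713 in Veh-Glut. The log2 fold change was 0.26 (standard error 0.0691, 95% interval 0.11 to 0.42, adjusted p = 0.0752 from limma). For Fth1 the range was 22701 to 26086 in TFBTBOA-Glut, against 21337 to 24608 in Veh-Glut. Its groups overlapped, with a log2 fold change of 0.12 (95% interval -0.048 to 0.28, adjusted p = 0.436 from limma). Tfrc libraries lay at 1289 to 1846 in TFBTBOA-Glut, against 1885 to 2598 in Veh-Glut, a log2 fold change of -0.49 (standard error 0.154, 95% interval -0.82 to -0.15, adjusted p = 0.127 from limma). All 3 TFBTBOA-Glut libraries of Tfrc were therefore below all 3 Veh-Glut libraries, the nearest pair being 1846 and 1885. Without TFBTBOA-Glut replicate 1 its log2 fold change was -0.32.

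Marker sums moved with these values too. The NSC markers summed to 108333 to 113971 normalized counts in TFBTBOA-Glut and 100170 to 103390 in Veh-Glut, and the endothelial markers to 42.2 to 60.8 in TFBTBOA-Glut and 4.91 to 23.2 in Veh-Glut. The endothelial sum rests on genes near the floor, with Cldn5 at 0 in 11 of the 12 libraries and Pecam1 in 7. Neither sum overlapped between the groups, and 23.2% of all genes had no overlap either. The part of the sums in the Ftl1 and Tfrc values was not tested.

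DESeq2 on recovered reads called Ftl1 higher (adjusted p = 0.0331) and Tfrc lower (adjusted p = 0.0404), and edgeR called neither. Ftl1 also passed in limma with all 12 libraries in the fit (adjusted p = 0.0195). Without Veh-Glut replicate 1, Ftl1 (adjusted p = 0.0451) and Tfrc (adjusted p = 0.0493) both passed in limma. Without TFBTBOA-Glut replicate 3, Aco1 passed as lower (log2 fold change -0.37, adjusted p = 0.0462 from limma), and without TFBTBOA-Glut replicate 1 its log2 fold change was -0.16 and it did not pass. With all libraries, Aco1 had a log2 fold change of -0.24 (adjusted p = 0.256), Slc11a2 of -0.25 (adjusted p = 0.313) and Ireb2 of -0.094 (adjusted p = 0.791 from limma). Slc40a1 was at 21.2, 33.3 and 13.4 normalized counts in TFBTBOA-Glut, against 0, 20.0 and 3.71 in Veh-Glut (log2 fold change 2.27, standard error 0.968, 95% interval 0.15 to 4.38, adjusted p = 0.241 from limma). The unadjusted interval lay above 0 but was wide. These groups overlapped at this low level.

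**Figure D3:**
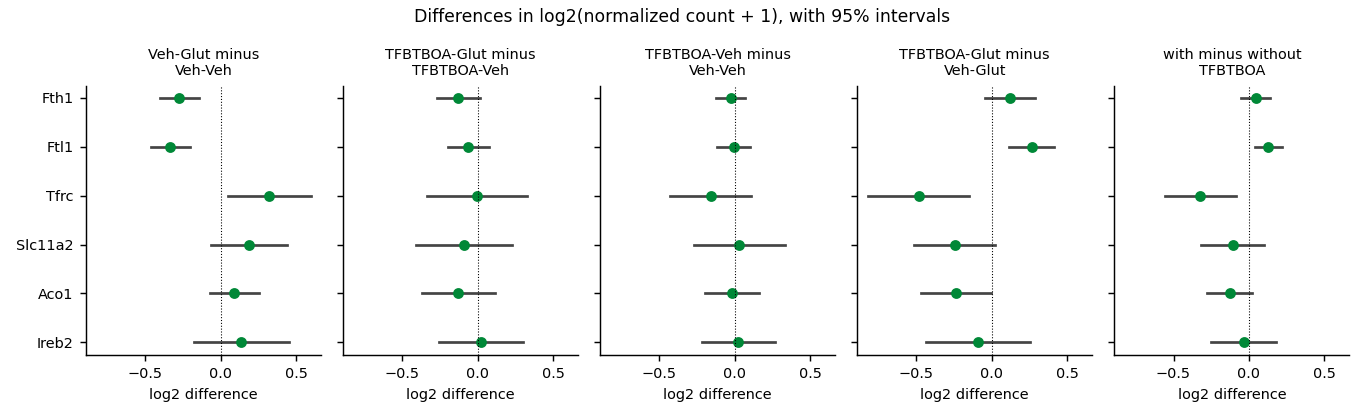
Differences in log2(normalized count + 1) from limma for 6 genes in 5 comparisons, with points for the estimate and lines for the 95% interval. The Ftl1 interval lies below 0 for Veh-Glut minus Veh-Veh and above 0 for TFBTBOA-Glut minus Veh-Glut, and Slc40a1 is left out because its intervals are several times wider.

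Without glutamate, the inhibitor gave the smallest ferritin differences. Log2 fold changes of TFBTBOA-Veh over Veh-Veh were -0.028 for Fth1 (95% interval -0.12 to 0.069) and -0.0076 for Ftl1 (95% interval -0.12 to 0.10). For Fth1 the interval spans folds of 0.917 to 1.05, and for Ftl1 0.921 to 1.07. Tfrc had a log2 fold change of -0.16 (95% interval -0.43 to 0.11, adjusted p = 0.683 from limma), Slc11a2 of 0.031, Ireb2 of 0.023 and Aco1 of -0.019. For Slc40a1 it was 0.49, with a 95% interval of -2.33 to 3.30, too wide to place it. No gene of the 7 passed and none had groups without overlap, as against 1.03% and 16.8% of all genes.

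Averaged over both glutamate states, the 6 libraries with the inhibitor had a log2 fold change over the 6 without it of 0.13 for Ftl1 (95% interval 0.038 to 0.22, adjusted p = 0.0829) and -0.32 for Tfrc (95% interval -0.56 to -0.088, adjusted p = 0.0938 from limma). None of the 7 passed, as against 7.52% of all genes. No gene of the 7 separated the 6 libraries from the other 6, as 4.28% of all genes did. For Ftl1 the highest library with the inhibitor was TFBTBOA-Veh replicate 1 at 19030, and the highest without it was Veh-Veh replicate 2 at 19935. Ftl1 passed in limma without Veh-Veh replicate 2 (adjusted p = 0.0486), and Tfrc without TFBTBOA-Veh replicate 3 (adjusted p = 0.0480). Without Veh-Glut replicate 1, Ftl1 (adjusted p = 0.0408) and Tfrc (adjusted p = 0.0360 from limma) both passed.

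Set against the receptor mRNA, ferritin mRNA was lowest in Veh-Glut NSCs. The ratio of summed Fth1 and Ftl1 to Tfrc, in normalized counts, was 33.5, 23.6 and 21.7 in TFBTBOA-Glut and 30.0, 31.7 and 22.1 in TFBTBOA-Veh. It was 21.4, 14.7 and 13.7 in Veh-Glut, against 24.6, 29.3 and 21.7 in Veh-Veh. The Veh-Glut libraries were the 3 lowest of 12, but Veh-Glut replicate 1 at 21.4 lay close to the lowest libraries of the other groups. This ratio combines values already given and was not tested.

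The balance of the chains varied less. Ftl1 over Fth1 was 0.730 ± 0.0539 in TFBTBOA-Glut, 0.697 ± 0.0126 in TFBTBOA-Veh, 0.659 ± 0.0176 in Veh-Glut and 0.688 ± 0.0384 in Veh-Veh (SD, n = 3 each). Together the chains held 0.280% ± 0.0161 of all normalized counts in TFBTBOA-Glut, 0.300% ± 0.0114 in TFBTBOA-Veh, 0.244% ± 0.0199 in Veh-Glut and 0.306% ± 0.0114 in Veh-Veh.

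**Figure D4:**
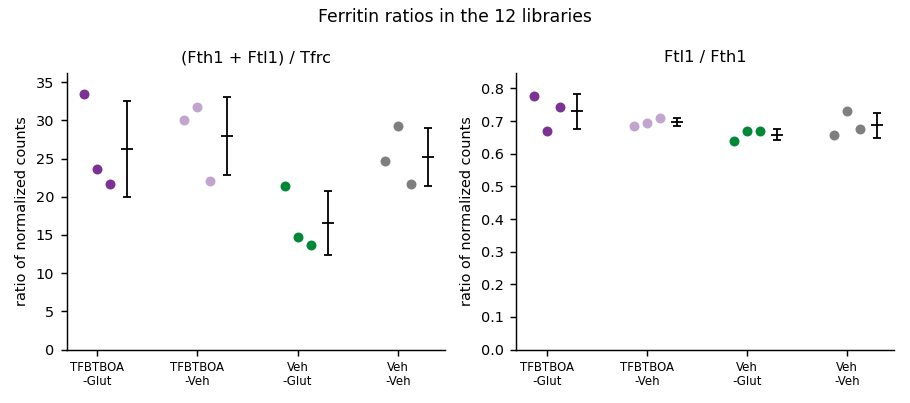
Ratio of summed Fth1 and Ftl1 to Tfrc (left) and of Ftl1 to Fth1 (right) in normalized counts, with 1 point per library, replicates 1 to 3 from left to right, and the mean and SD of 3 libraries. On the left the Veh-Glut points lie at 13.7, 14.7 and 21.4, and every other library lies above them.

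Among iron genes beyond the 7, ceruloplasmin, Hspa9 and Hmox1 passed in at least 1 comparison with the inhibitor, and none passed for glutamate. Of 82 such genes in 7 lists, 80 were in the table and 68 passed the filter on low values. None of the 68 passed for glutamate in either state or for the interaction. For the inhibitor, 1 passed as higher without glutamate, 1 as higher and 1 as lower with glutamate, and 1 as higher and 2 as lower over both states. Of all genes, 1.03%, 2.18% and 7.52% passed in these comparisons, so the shares of the 68 were near or below the background. The median log2 fold change of the 68 was -0.024 for Veh-Glut over Veh-Veh and -0.011 for TFBTBOA-Glut over Veh-Glut, beside 7.77e-05 and 0.00945 for all genes.

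Cp, ceruloplasmin, the ferroxidase that works with Slc40a1 in export, rose with the inhibitor in both states. It was at 3263, 3161 and 3628 normalized counts in TFBTBOA-Veh, against 2192, 2422 and 2382 in Veh-Veh (log2 fold change 0.52, standard error 0.0788, adjusted p = 0.00992 from limma). It was at 3171, 2852 and 3305 in TFBTBOA-Glut, against 2206, 2560 and 2253 in Veh-Glut (log2 fold change 0.41, standard error 0.0938, adjusted p = 0.0483 from limma). All 6 libraries with the inhibitor lay above all 6 without it. Sums over the astrocyte and oligodendrocyte marker lists also differed with the inhibitor without glutamate. The summed astrocyte markers were at 9325 to 10117 normalized counts in TFBTBOA-Veh and 8956 to 9290.5 in Veh-Veh, and the summed oligodendrocyte markers at 43921 to 46891 in TFBTBOA-Veh and 48180 to 54256 in Veh-Veh. Olig1 had a median of 44134 normalized counts over the 12 libraries, Aldoc of 6057 and Aldh1l1 of 3237. These genes made up most of the sums, so the sums do not count cells of those types. The part of the sums in the Cp values was not tested. Over both states the log2 fold change was 0.47 (adjusted p = 0.000249 from limma), and glutamate alone gave 0.0027. Without glutamate the call was lost without Veh-Veh replicate 1 (adjusted p = 0.0544) or TFBTBOA-Veh replicate 1 (adjusted p = 0.0508 from limma), and with no filter on low values (adjusted p = 0.168). With glutamate it was lost in edgeR (adjusted p = 0.0527) and, in limma, when any library but TFBTBOA-Glut replicate 2 was left out (adjusted p = 0.0734 to 0.181) or with no filter (adjusted p = 0.229). The call over both states held when any of the 12 libraries was left out.

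Hspa9, a mitochondrial chaperone that helps hand over iron-sulfur clusters, fell with the inhibitor in the presence of glutamate. It was at 9836, 9247 and 11049 normalized counts in TFBTBOA-Glut, against 12475, 13774 and 13747 in Veh-Glut (log2 fold change -0.41, standard error 0.0797, adjusted p = 0.0239 from limma). In Veh-Veh it was at 10516, 11371 and 10647, so the Veh-Glut libraries were the highest of the 12. Glutamate alone gave a log2 fold change of 0.30 (adjusted p = 0.103 from limma), which DESeq2 called (adjusted p = 0.00864). The call with the inhibitor was lost without Veh-Glut replicate 2 or 3 or TFBTBOA-Glut replicate 1 or 2 (adjusted p = 0.0604 to 0.131 from limma), and with no filter (adjusted p = 0.239). Over both states Hspa9 also fell, by 0.26 on the log2 scale (adjusted p = 0.00369 from limma), and this held when any library was left out. Without glutamate it did not pass, with a log2 fold change of TFBTBOA-Veh over Veh-Veh of -0.11 (95% interval -0.23 to 0.0050, adjusted p = 0.460 from limma), and the interaction did not pass either (adjusted p = 0.581).

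Hmox1, heme oxygenase, which frees iron from heme, fell with the inhibitor on average over both states, by 0.26 on the log2 scale (adjusted p = 0.0181 from limma). In neither state alone did it pass. It was at 1371, 1251 and 1221 normalized counts in TFBTBOA-Glut and 1230, 1313 and 1255 in TFBTBOA-Veh, against 1496, 1305 and 1400.2 in Veh-Glut and 1770.0, 1597 and 1588 in Veh-Veh. The call was lost without Veh-Veh replicate 1 (adjusted p = 0.0549) or TFBTBOA-Veh replicate 1 (adjusted p = 0.0506 from limma). Veh-Veh held the 3 highest libraries of Hmox1, so the Veh-Glut libraries, without the inhibitor, also lay below them. Glutamate alone did not pass for Hmox1, and 14.4% of all genes tested had no overlap in that comparison. With glutamate, the groups with and without the inhibitor overlapped.

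The other genes named are those of smallest p in their list. For Veh-Glut over Veh-Veh, Abcb10, a mitochondrial transporter needed for heme synthesis in red cell precursors, was at 552 ± 68.8 normalized counts in Veh-Glut and 304 ± 63.0 in Veh-Veh (log2 fold change 0.87, adjusted p = 0.103 from limma). DESeq2 called it (adjusted p = 0.000890). In TFBTBOA-Glut it was at 260.5, 184 and 545, with replicate 3 at the Veh-Glut level (log2 fold change -0.89 over Veh-Glut, adjusted p = 0.154). Without that library it passed as lower (log2 fold change -1.33, adjusted p = 0.00691 from limma).

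Further genes chosen this way gave no call for glutamate alone. Herc2, a ubiquitin ligase for the ferritin receptor Ncoa4, had a log2 fold change of 0.21 (adjusted p = 0.720). Slc22a17, a receptor for lipocalin, had 0.18 (adjusted p = 0.419 from limma). Neo1, which acts in hepcidin control, had -0.24 (adjusted p = 0.595 from limma). For TFBTBOA-Glut over Veh-Glut, Hfe, a partner of Tfrc, had a log2 fold change of 0.72 (adjusted p = 0.132) and Abcg2, which can export heme, -0.47 (adjusted p = 0.149). Without TFBTBOA-Glut replicate 3, Abcg2 passed as lower (adjusted p = 0.0408 from limma). Pcbp2, an iron chaperone, had 0.17 (adjusted p = 0.441) and Cul1, a scaffold of the ligase that degrades Ireb2, -0.22 (adjusted p = 0.287 from limma).

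**Figure D5:**
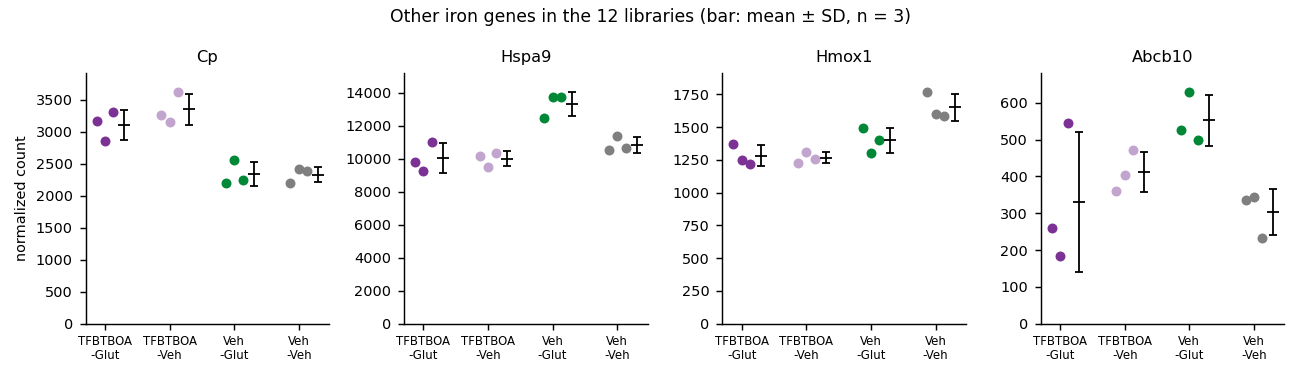
Normalized counts of Cp, Hspa9, Hmox1 and Abcb10 in the 12 libraries, replicates 1 to 3 from left to right in each group, with the mean and SD of 3 libraries. For Cp the 6 libraries with the inhibitor lie between 2852 and 3628, above the 6 without it, and for Hspa9 the Veh-Glut libraries lie highest.

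The genes whose log2 values most resembled each of the 7 were sought among 10319 genes with a mean of at least 100, by Pearson's r over the 12 libraries. These libraries share treatments and scaling, so the values describe likeness only. Ftl1 was most like Prdx1 (r = 0.957), a peroxiredoxin that removes peroxides, Uchl1 (0.957), a ubiquitin hydrolase, and Nt5c (0.951), a nucleotidase. Fth1 was most like Gstp-ps (r = 0.926), a glutathione transferase pseudogene, Amdhd2 (0.926), an amino sugar deacetylase, and Nenf (0.924), a secreted heme-binding protein. Tfrc was most like Mmgt1 (r = 0.975), a subunit of a membrane insertion complex, Ppp4r3b (0.965), a phosphatase subunit, and Rnf138 (0.958), a ubiquitin ligase. The ferritin chains shared none of these 3 nearest genes.

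For the other genes r lay between 0.862 and 0.932. Aco1 was nearest to Nedd1 (r = 0.900), a spindle protein, Tmem184c (0.893) and Brip1 (0.890), a DNA helicase with an iron-sulfur cluster. Ireb2 was nearest to Rbl2 (r = 0.912), a retinoblastoma family protein, Tpp2 (0.908), a peptidase, and Wdpcp (0.862). Slc11a2 was nearest to Poldip3 (r = 0.932), Tsnax (0.930) and Klhl23 (0.927). Slc40a1 was nearest to Rbm15 (r = 0.882), an RNA binding protein, Adarb1 (0.881), an RNA editing enzyme, and Rnf32 (0.874), and 3 of its 12 values were 0.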

How the data were processed

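The authors deposited 1 signal per gene in each library, a normalized count: trimmed reads were aligned with HISAT2 to GRCm38p4, counted per GENCODE M14 gene with featureCounts and divided by DESeq size factors. HISAT2 2.0.6, CASAVA 1.8.2 and the build GRCh38 appear in the submitters' processing notes. The methods state stranded counting, though the kit does not mark strand. Samples were grouped by the treatment in their labels.

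The 14266 genes whose normalized counts averaged 10 or more over 12 libraries were fitted as log2(normalized count + 1) with limma 3.58.1 (trend, two-sided, R 4.3.3). Pairwise comparisons used their own 6 libraries, and the interaction and pooled inhibitor effect used all 12. Fold changes on this scale understate the change of low genes. Whole reads were recovered in 10 libraries by dividing by the value of 1 read, with 100% of values within 0.05 of a whole number. edgeR 4.0.16 and DESeq2 1.42.0 were run as alternatives on them, after which edgeR called 23 genes for glutamate alone and 297 for the inhibitor with glutamate. Reads were not recovered for replicates 2 and 3 of TFBTBOA-Veh. The limma fit was run on simulated counts for Veh-Glut against Veh-Veh only, with the same dispersion set for every gene. This checked the code and does not bear on how the calls moved when a library was left out.

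The 7 genes and all lists were chosen with earlier results of these data known. Besides the 7, genes named are the other iron genes past the threshold in any comparison, the gene of smallest p per list for glutamate alone and for the inhibitor with glutamate, the 3 nearest genes of each of the 7, ferritin copies, and markers. A gene that this rule names is not reported here. Symbols were matched to GENCODE M21 (GRCm38) for coordinates, exon lengths and IREs.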

Additional observations from a re-analysis of the deposited data

How the results depend on the processing

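Of the recalculated fold changes of the 7 genes, 593 kept their direction and side of the threshold, 20 passed only under an alternative and 25 changed sign. The number of the 7 called for glutamate alone was 0, against 1 at a minimum mean of 50 or with all 12 libraries in the fit, 2 with DESeq2 and 0 to 2 with a library left out. For the inhibitor with glutamate it was 0, against 1 with all 12 libraries, 2 with DESeq2 and 0 to 2 with a library left out. Over both glutamate states it was 0, and 0 to 2 with a library left out. Other iron genes were rechecked under alternatives chosen after seeing the data. For glutamate alone 0 were called, 2 with DESeq2 and 0 to 1 with a library left out. For the inhibitor without glutamate 1 was called, 0 with no filter, 2 at a minimum mean of 50 or with all 12 libraries, and 0 to 1 with a library left out. For the inhibitor with glutamate 2 were called, 0 with no filter, 1 with edgeR and 0 to 3 with a library left out. The causes of these shifts were not tested.

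With a library left out, these log2 fold changes crossed 0. For Veh-Glut over Veh-Veh, Slc40a1 ran from -0.94 to 1.26 and Ireb2 from -0.031 to 0.26. For TFBTBOA-Glut over TFBTBOA-Veh, Tfrc ran from -0.10 to 0.17 and Ireb2 from -0.080 to 0.10. For TFBTBOA-Veh over Veh-Veh, Fth1 ran from -0.059 to 0.0057, Ftl1 from -0.043 to 0.041, Slc40a1 from -0.54 to 1.76, Slc11a2 from -0.061 to 0.18, Ireb2 from -0.060 to 0.075 and Aco1 from -0.090 to 0.033. Ireb2 ran from -0.22 to 0.075 for TFBTBOA-Glut over Veh-Glut, from -0.24 to 0.052 for the interaction and from -0.098 to 0.049 for the inhibitor over both states.

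Over all genes, glutamate alone gave 23 calls, 39 at a minimum mean of 50, 36 with all 12 libraries, 160 with DESeq2 and 0 to 139 with a library left out. Glutamate with the inhibitor gave 0, and 9 with no filter. The inhibitor alone gave 147, 23 with no filter and 31 to 86 with a library left out. The inhibitor with glutamate gave 311, 43 with no filter, 727 with all 12 libraries, 862 with DESeq2 and 62 to 441 with a library left out. The interaction gave 2, and 0 with no filter.

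Replicate numbers are shared between groups, but deviations of same-numbered libraries correlated at only -0.158 to 0.290, and no comparison had every pair above 0.1, so the numbers were not taken as pairs. In a fit with the replicate block, 2 of the 7 genes were called for the inhibitor with glutamate (Ftl1, adjusted p = 0.0348, and Tfrc, adjusted p = 0.0174, from limma). Over both glutamate states 2 were called (Ftl1, adjusted p = 0.0369, and Tfrc, adjusted p = 0.0287). The block gave 2 other iron genes for the inhibitor alone. It gave 4 calls over all genes for glutamate alone, 325 for the inhibitor alone, 459 for the inhibitor with glutamate, 1293 over both states and 14 for the interaction. Every library of the inhibitor alone correlated best with its own number, 6 of 6, against 2 to 4 of 6 in the other comparisons. Library names run consecutively through the groups within each replicate number. Whether same-numbered libraries were handled together is not given in the sources used here.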
